A study of Rattus norvegicus with 8 samples.

Results

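The cell cycle and mitosis genes described here are 50 genes, of the 34912 gene names printed on a rat array, that were listed by symbol and found through the gene name of each probe. They were measured by 73 of the 45598 rat probes, which filled 187 of the 58717 rat spots, and all 50 were well above background on all 8 arrays. Following the stage of the cycle in which their products are best known, 12 genes were taken as S phase genes (Mcm2 to Mcm7, Pcna, Rrm1, Rrm2, E2f1, Ccne1 and Ccne2), 31 as G2/M genes, and 7 as G1 and other genes (Ccnd1, Ccnd2, Ccnd3, Cdk2, Cdk4, Cdc6 and Tyms).

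The cells were osteoblast-like cells from the calvaria of 3-5-day old Wistar rats, a primary culture obtained by serial enzyme digestion of the skull bone. RNA came from 4 non-irradiated cultures (0 J/cm2) and from 4 cultures exposed to 3.3 J/cm2 from an Er:YAG laser, all at the 6 h time point, and each was hybridized to 1 one-color array. The cultures of both groups carried the replicate numbers 1 to 4, and both arrays of a number carried the same animal number in the names of the scanner files, so the groups were compared within replicate number. The labels name no other difference between the groups. By the study's methods, cultures for gene expression were grown to confluence, were irradiated with the medium taken off, and then received osteoinduction medium, and no other culture is described for the arrays. The comparison asks whether genes that mark dividing cells differed in level 6 h after the laser, and whether genes of DNA synthesis and genes of mitosis differed in the same way.

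A dividing cell passes through G1, in which cyclin D kinases release E2F transcription factors from the retinoblastoma proteins, then through S phase, in which the chromosomes are copied, and through G2 into mitosis, in which they are separated. E2F factors switch on the genes of DNA synthesis, while the late genes for mitosis are switched on by a complex of B-MYB, MuvB and FOXM1 that binds the CHR element, often beside CCAAT boxes bound by NF-Y. The transcripts of these genes are therefore abundant in cultures with many cycling cells and scarce in resting ones, and in bone cultures they are known to decline as osteoblasts stop dividing and mature. In RNA from a whole culture, fewer cycling cells and less of the RNA in each cycling cell cannot be told apart.

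The stretches before the transcription start of 4 of these genes are shown because they hold CHR elements or E2F cores, which were found in different shares of both classes. RefSeq promoters of the build GRCr8 (250 bases before and 50 bases from the start) matched 38 of the 50 symbols. The motifs searched, on both strands, were the CHR element (TTTGAA or TTCGAA), the CCAAT box (CCAAT) and an E2F core (TTCGCGC or TTGGCGC). Each line gives the 150 bases before the start, 5′ to 3′ on the strand of the gene, with the bases of any match in capitals. The genes are Cdk1 (chr20:19265143-19265292, plus strand), Mki67 (chr1:199952594-199952743, minus strand), Top2a (chr10:84473094-84473243, minus strand) and Mcm7 (chr12:22163179-22163328, minus strand).
Cdk1: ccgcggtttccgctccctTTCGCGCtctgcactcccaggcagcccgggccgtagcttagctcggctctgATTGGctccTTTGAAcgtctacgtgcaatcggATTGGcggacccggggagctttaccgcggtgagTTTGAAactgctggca
Mki67: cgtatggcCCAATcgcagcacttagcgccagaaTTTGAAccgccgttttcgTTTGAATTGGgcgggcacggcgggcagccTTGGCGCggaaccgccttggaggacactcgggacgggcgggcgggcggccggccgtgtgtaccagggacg
Top2a: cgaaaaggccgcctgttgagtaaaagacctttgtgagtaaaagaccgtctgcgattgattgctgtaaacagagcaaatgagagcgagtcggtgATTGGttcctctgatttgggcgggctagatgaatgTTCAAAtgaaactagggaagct
Mcm7: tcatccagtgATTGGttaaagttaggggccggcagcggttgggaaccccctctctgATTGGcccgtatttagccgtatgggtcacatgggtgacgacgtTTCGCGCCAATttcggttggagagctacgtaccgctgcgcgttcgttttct

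The CHR element was present in 19 of 26 promoters of G2/M genes (73.1%) and in 3 of 8 promoters of S phase genes (37.5%), while 19.7% of all 33469 promoters in the table held it. The E2F core showed the opposite order, with 5 of 8 promoters of S phase genes (62.5%), 2 of 26 promoters of G2/M genes (7.69%) and 3.66% of all promoters. The CCAAT box was frequent in both classes, in 21 of 26 (80.8%) and 6 of 8 promoters (75%), against 37.5% of all promoters. Both G2/M promoters with an E2F core were those of Cdk1 and Mki67, the mitotic kinase and the proliferation marker. Matches of different motifs can share bases, as in Mki67, where a CHR element runs into a CCAAT box read on the other strand, and in Mcm7, where an E2F core runs into a CCAAT box. These matches describe the letters of the promoters and were not tested for binding in these cells.

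**Figure D1:**
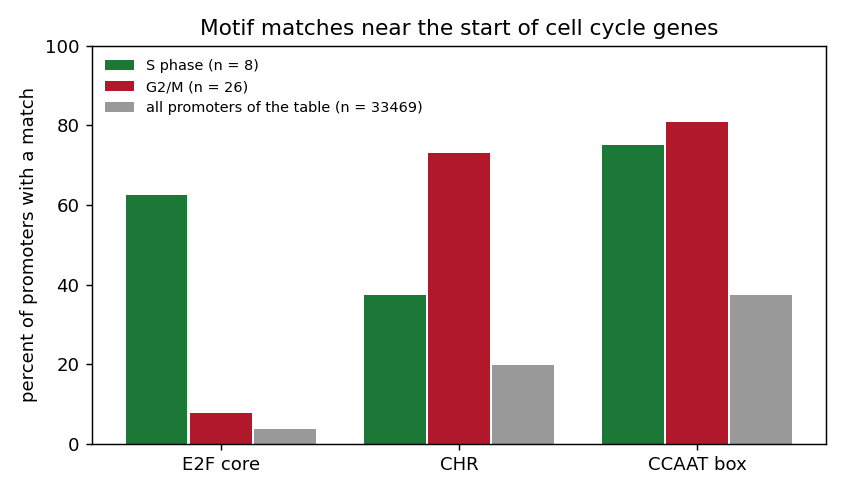
Percent of promoters (y axis) that hold an E2F core, a CHR element or a CCAAT box on either strand, for S phase genes (green, n = 8), G2/M genes (red, n = 26) and all 33469 promoters of the table (gray). The E2F core was most frequent in S phase genes at 62.5%, and the CHR element in G2/M genes at 73.1%.

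Several arrays stood apart from the rest. The deviations of both arrays of a number from their group means were correlated across 26250 probes, which are not independent replicates, at 0.61, 0.05, 0.57 and 0.75 for numbers 1 to 4. Irradiated replicate 2 deviated more like non-irradiated replicate 1, at 0.44, than like the other array of its number. Over the cell cycle genes irradiated replicate 2 and non-irradiated replicate 1 correlated at 0.68. Over these genes both arrays of a number correlated at 0.37, -0.17, 0.59 and 0.87 for numbers 1 to 4, so number 2 did not pair in them. Both arrays of number 4 differed from the other 6 in the genes described here, as given further on. The median processed signal ranged from 56.2 to 72.6 on non-irradiated and from 56.8 to 84.8 on irradiated arrays. The lowest value of each group was that of replicate 4. Between 26543 and 30490 probes were well above background, with the fewest on non-irradiated replicate 4, and 0 spots were saturated. The part of signal strength in the differences between numbers was not tested. All arrays lay on 1 slide. Non-irradiated arrays lay in columns 1 and 3 and irradiated arrays in columns 2 and 4, so column and irradiation cannot be told apart. Numbers 1 and 2 lay in row 1 and numbers 3 and 4 in row 2, with both arrays of a number side by side. Slide position and replicate number therefore cannot be told apart either. The osteoblast markers Col1a1 and Col1a2, the chains of type I collagen, were among the 9 osteoblast markers that all passed the background filter. The macrophage markers Ptprc, Csf1r and Adgre1 did not pass it, while the macrophage markers Cd68 and Cd14 did. All markers of endothelium and cartilage also passed it, as did 3 of 4 markers of skeletal muscle.

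No cell cycle gene passed the test between irradiated and non-irradiated cells. With limma, 0 of 50 genes were called at an adjusted p below 0.1, as were 0 of all 26391 probes tested (0%), and 0 of 50 genes had an unadjusted p below 0.05, where 670 probes (2.54%) did, 374 higher (1.42%) and 296 lower (1.12%). The methods' t-test on pairs also gave 0 genes with an unadjusted p below 0.05 and 738 probes. The log2 fold changes of the 50 genes ran from -0.34 for Tpx2 to 0.21 for Cenpa with a median SE of 0.16, and 47 of the 50 lay within 0.25 of 0. Their median was -0.08, against -0.0035 over all probes tested. The fold change was negative in 41 of the 50 genes and positive in 9, where 48.8% of all probes were positive.

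The S phase genes had a median log2 fold change of -0.02, with 8 of 12 negative, and the G2/M genes a median of -0.11, with 28 of 31 negative. The medians differed by 0.09, less than the SD over the 4 pairs of the difference between the class medians of single pairs (0.12). The medians themselves were smaller than the SD of the single-pair medians, 0.20 for S phase and 0.24 for G2/M genes. Such an SD describes single pairs and is wider than the error of a mean over them. The S phase median was the higher one in pairs 2, 3 and 4 and the lower one in pair 1. The medians over all pairs rested on replicate 4. Without it, the S phase median turned to 0.06, the G2/M median was -0.0038, and 27 of the 50 genes were positive.

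Among the S phase genes, Pcna, the sliding clamp of the replication fork, had log2 signals of 13.05, 13.31, 13.37 and 14.25 on non-irradiated arrays 1 to 4 and 13.00, 13.44, 13.43 and 13.99 on irradiated arrays 1 to 4. Both groups overlapped, and replicate 4 was the highest array in each. The log2 fold change of Pcna was -0.03 ± 0.12 (SE, n = 4 pairs) with an unadjusted limma p of 0.826.

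Mcm7, a subunit of the replicative helicase, measured 12.12, 12.61, 12.70 and 13.65 in non-irradiated and 12.34, 12.65, 12.57 and 13.29 in irradiated cells, a log2 fold change of -0.06 ± 0.14 (SE, n = 4 pairs). Mcm5 of the same helicase measured 12.84, 13.31, 13.47 and 14.45 in non-irradiated and 12.94, 13.62, 13.42 and 14.12 in irradiated cells, a log2 fold change of 0.01 ± 0.14. The 6 helicase genes Mcm2 to Mcm7 lay between -0.11 and 0.04 (log2 fold change), and in Mcm6 pairs 1 and 2 were 0.60 and -1.06, the widest spread between pairs among the S phase genes. Rrm1 and Rrm2, the subunits of ribonucleotide reductase that supplies deoxynucleotides, had log2 fold changes of -0.06 and -0.08.

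E2f1, the activating transcription factor of the class, measured 9.80, 10.79, 10.84 and 11.86 in non-irradiated and 10.14, 10.48, 10.80 and 11.57 in irradiated cells, a log2 fold change of -0.07 ± 0.15 (SE, n = 4 pairs). Ccne2, which activates CDK2 at the entry into S phase, measured 10.74, 11.35, 11.44 and 11.97 in non-irradiated and 11.19, 11.46, 11.31 and 11.95 in irradiated cells. The difference of 0.10 ± 0.14 (log2) was largest in pair 1, at 0.44, and Ccne2 was the S phase gene with the smallest unadjusted limma p, 0.493.

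**Figure D2:**
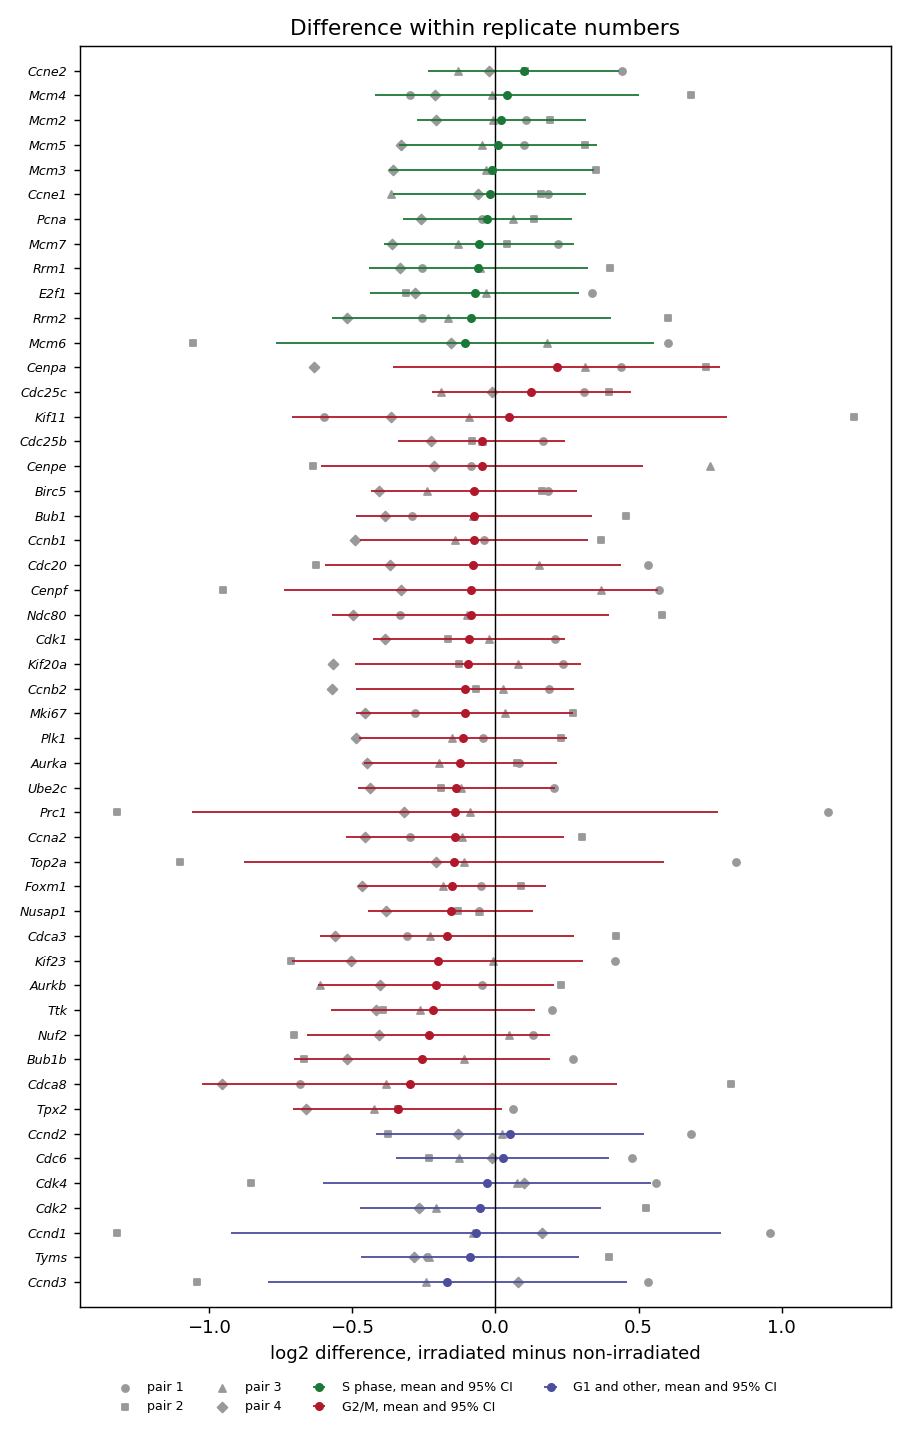
Log2 difference between irradiated and non-irradiated arrays (x axis) for each of the 50 genes (y axis), with the mean and its 95% confidence interval in green (S phase), red (G2/M) or blue (G1 and other) and the 4 pairs as gray symbols. Every interval includes 0, and the lowest mean is that of Tpx2 at -0.34.

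Among the probes that stood for the G2/M genes, that of the spindle assembly factor Tpx2 had the smallest p. Other probes of Bub1b and Ndc80 had smaller unadjusted limma p-values, 0.0530 and 0.0546. The log2 signals of Tpx2 were 5.81, 6.02, 5.94 and 7.50 in non-irradiated and 5.88, 5.68, 5.52 and 6.84 in irradiated cells, lower in the irradiated array in 3 of 4 pairs. The log2 fold change was -0.34 ± 0.15 (SE, n = 4 pairs), with an unadjusted limma p of 0.0622 and an adjusted p of 1.00. With normexp background correction the value was -0.20 (unadjusted limma p of 0.0810), and Bub1b and Ttk then had lower values, -0.24 and -0.23, and Ttk a smaller p of 0.0795.

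The spindle checkpoint kinases Ttk and Bub1b, which delay chromosome separation until every kinetochore is attached, came next. Ttk measured 9.11, 9.59, 9.79 and 11.14 in non-irradiated and 9.31, 9.20, 9.53 and 10.73 in irradiated cells, a log2 fold change of -0.22 ± 0.15 (SE, n = 4 pairs). Bub1b measured 7.25, 7.76, 8.15 and 9.63 in non-irradiated and 7.52, 7.09, 8.04 and 9.11 in irradiated cells, a log2 fold change of -0.26 ± 0.18. On these probes of both genes, pair 1 was higher in the irradiated array and the other 3 pairs were lower. The other probe of Bub1b was lower in all 4 pairs, with a log2 fold change of -0.29 ± 0.12 and an unadjusted limma p of 0.0530. Without replicate 1, Tpx2, Ttk and Bub1b had unadjusted limma p-values of 0.0203, 0.0461 and 0.0459, with an adjusted p of 0.908 for each.

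Nuf2, a subunit of the kinetochore complex that holds microtubules, measured 7.94, 8.62, 8.62 and 10.24 in non-irradiated and 8.07, 7.92, 8.67 and 9.83 in irradiated cells, with 2 pairs higher and 2 lower. Aurkb, the kinase of the chromosomal passenger complex, measured 4.71, 5.29, 5.50 and 6.72 in non-irradiated and 4.66, 5.52, 4.89 and 6.32 in irradiated cells. Nusap1, a microtubule-binding protein of the spindle, measured 10.78, 10.83, 10.98 and 12.35 in non-irradiated and 10.72, 10.70, 10.92 and 11.97 in irradiated cells. On the probe that stood for each gene, only Nusap1 of the 50 genes was lower in the irradiated array in all 4 pairs. It was lower by 0.06, 0.13, 0.06 and 0.38 on the log2 scale, and 0 genes were higher in all 4. Of all probes, 4% were lower and 3.57% higher in all 4 pairs. Another probe of Bub1b, of Ndc80 and of Prc1 was also lower in all 4 pairs. The log2 fold changes were -0.23 ± 0.17 for Nuf2, -0.21 ± 0.17 for Aurkb and -0.16 ± 0.12 for Nusap1 (SE, n = 4 pairs), and the unadjusted limma p was 0.229, 0.265 and 0.233. With normexp Aurkb was at -0.09.

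Mki67, which coats mitotic chromosomes and is the usual marker of cycling cells, measured 12.10, 11.98, 12.05 and 13.53 in non-irradiated and 11.82, 12.25, 12.09 and 13.07 in irradiated cells. Cdk1, the kinase that drives entry into mitosis, measured 13.91, 14.17, 14.23 and 15.57 in non-irradiated and 14.12, 14.00, 14.21 and 15.19 in irradiated cells. Ube2c, the ubiquitin-conjugating enzyme that works with the anaphase-promoting complex, measured 11.16, 11.29, 11.52 and 13.02 in non-irradiated and 11.36, 11.09, 11.40 and 12.58 in irradiated cells. In all 3 genes replicate 4 was the highest array of its group, by over 1 log2 unit in the non-irradiated group, and the groups overlapped. Their log2 fold changes were -0.11 ± 0.15 for Mki67, -0.09 ± 0.14 for Cdk1 and -0.14 ± 0.14 for Ube2c (SE, n = 4 pairs). Without replicate 4, the values of Mki67 and Cdk1 turned to 0.0083 and 0.0064.

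Top2a, the topoisomerase that untangles sister chromatids, varied more between arrays. It measured 6.70, 8.0, 8.06 and 9.82 in non-irradiated and 7.54, 6.90, 7.95 and 9.61 in irradiated cells. The irradiated array was higher by 0.84 in pair 1 and differed by -1.10 in pair 2 (log2), and the log2 fold change was -0.14 ± 0.30 (SE, n = 4 pairs). Without replicate 2 it was 0.18. Prc1 and Kif11, which bundle and slide spindle microtubules, had similarly wide pairs, with 1.16 and -1.32 in pairs 1 and 2 for Prc1 and -0.60 and 1.25 for Kif11.

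**Figure D3:**
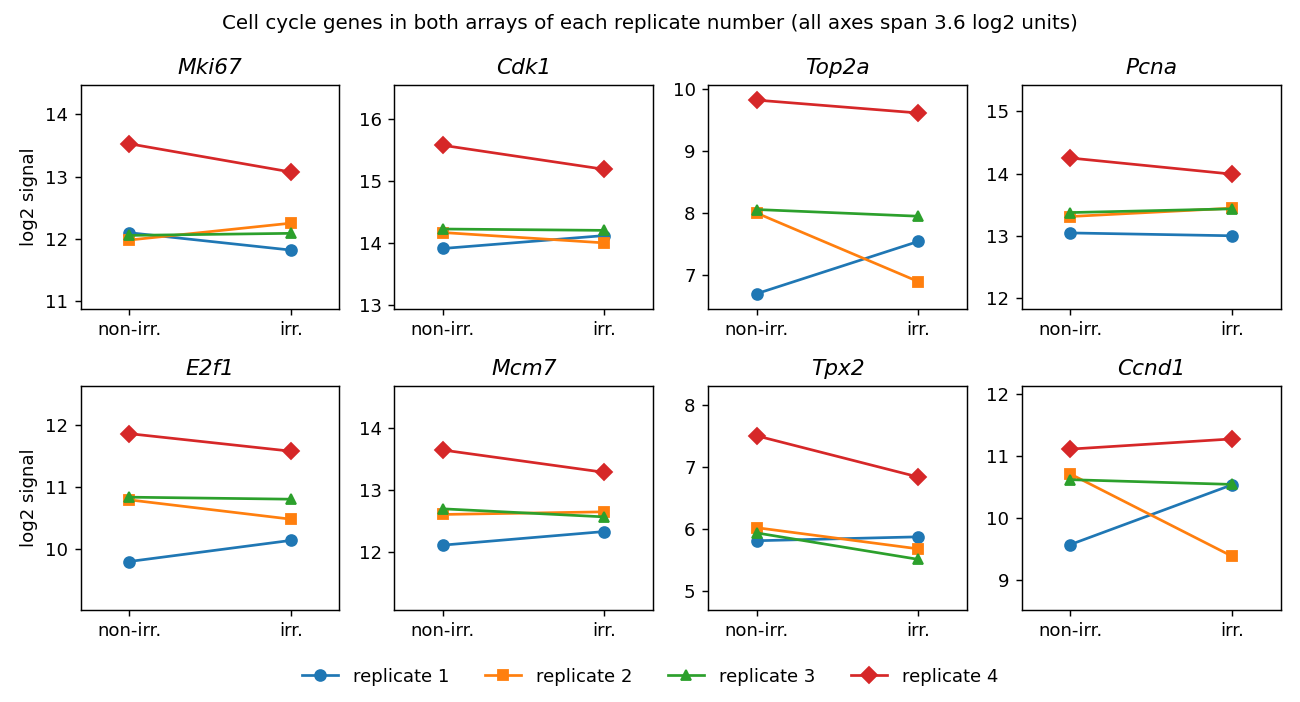
Log2 signal (y axes, each spanning 3.6 log2 units) of 8 cell cycle genes in both groups, with a line joining the arrays of a replicate number. Replicate 4 (red) lay above the other numbers on both arrays in all 8 genes, and the lines of replicates 1 and 2 cross in Mki67, Cdk1, Top2a, Tpx2 and Ccnd1.

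The other G2/M genes lay in the same range of log2 fold changes. The mitotic cyclins Ccna2, Ccnb1 and Ccnb2 were at -0.14, -0.08 and -0.11, and the phosphatases Cdc25b and Cdc25c, which activate CDK1, at -0.05 and 0.13. The kinases Aurka and Plk1, which build the spindle poles, were at -0.12 and -0.11. The 5 centromere and kinetochore genes ran from -0.23 for Nuf2 to 0.21 for Cenpa, and the 6 genes of the spindle and cytokinesis from -0.34 for Tpx2 to 0.05 for Kif11. Foxm1, the transcription factor of the class, was at -0.15, with 9.98, 10.21, 10.06 and 11.14 in irradiated and 10.03, 10.12, 10.24 and 11.61 in non-irradiated cells.

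Of the G1 and other genes, Ccnd1, which carries growth signals into the cycle, measured 9.58, 10.71, 10.62 and 11.11 in non-irradiated and 10.54, 9.39, 10.54 and 11.28 in irradiated cells. Ccnd3, another D-type cyclin, measured 10.00, 10.79, 10.99 and 10.85 in non-irradiated and 10.53, 9.75, 10.75 and 10.93 in irradiated cells. In both cyclins the low arrays were non-irradiated replicate 1 and irradiated replicate 2, whose deviations correlated at 0.44 over all probes. The log2 fold change was -0.07 ± 0.35 for Ccnd1 and -0.17 ± 0.26 for Ccnd3 (SE, n = 4 pairs), and without replicate 2 these were 0.35 and 0.12. Tyms, which makes thymidylate for DNA synthesis, measured 8.30, 8.64, 8.71 and 9.77 in non-irradiated and 8.06, 9.04, 8.48 and 9.49 in irradiated cells, a log2 fold change of -0.09 ± 0.16.

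The 4 pairs differed in direction. In pair 1, 7 of 12 S phase and 18 of 31 G2/M genes were higher in the irradiated array, where 42.8% of all probes were. In pair 2, 10 S phase and 15 G2/M genes were higher, where 56.9% of all probes were. In pair 3 the counts were 2 and 8 (47.1% of all probes), and in pair 4 they were 0 and 0 (50.2% of all probes).

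Pair 4 was thus the pair in which both classes moved one way, with all 43 S phase and G2/M genes lower in the irradiated array. The median log2 difference in the pair was -0.27 for S phase and -0.44 for G2/M genes, against 0.0014 for all probes. Only Ccnd1, Ccnd3 and Cdk4, which act together in G1, were higher in that pair, by 0.16, 0.08 and 0.10 on the log2 scale. A pair is 1 array against 1 array and gives no test. The medians of pairs 1, 2 and 3 were 0.10, 0.17 and -0.04 for S phase genes and 0.13, -0.07 and -0.10 for G2/M genes.

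Pairs 1 and 2 had opposite signs in 39 of the 50 genes (78%), and so they did in 74.2% of all probes, so that this is close to the background. Across the 50 genes the log2 differences of both pairs had a Pearson's r of -0.82, and across all probes one of -0.58. These are descriptions of 4 arrays, in which the genes share the libraries. Without non-irradiated replicate 1 and irradiated replicate 2, a comparison of the other 6 arrays without the replicate block gave medians of -0.17 for S phase and -0.23 for G2/M genes, with 1 of the 50 genes positive and 0 called. That comparison holds number 1 in the irradiated group only and number 2 in the non-irradiated group only, so that differences between these numbers enter it. Pairs 3 and 4 had opposite signs in 13 of the 50 genes (26%), where 48.2% of all probes had.

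**Figure D4:**
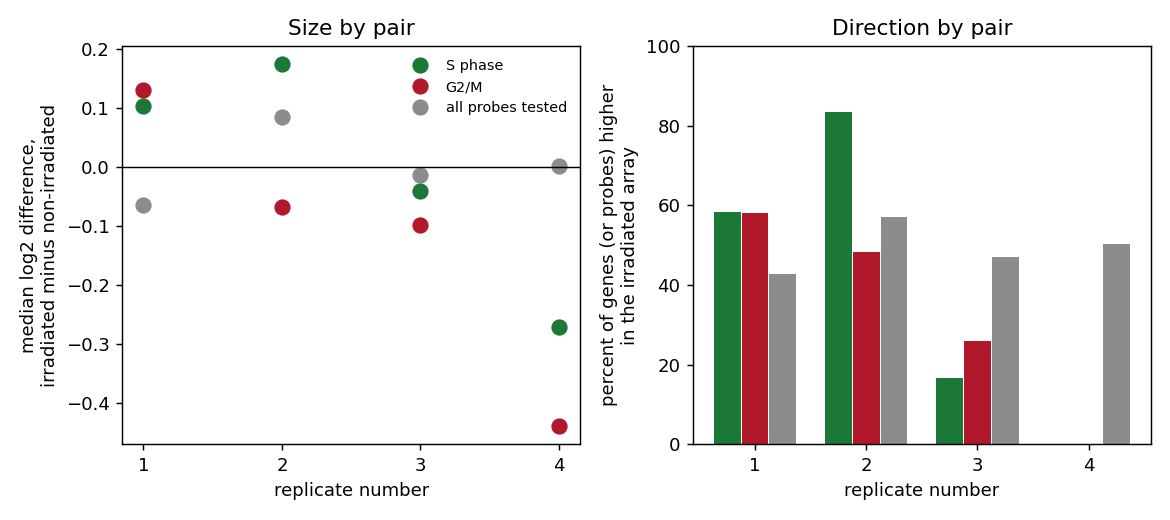
Left, median log2 difference between the irradiated and the non-irradiated array (y axis) in each replicate number (x axis) for S phase genes (green), G2/M genes (red) and all probes tested (gray). Right, percent of genes or probes higher in the irradiated array in the same pairs. The S phase and G2/M medians lay between -0.10 and 0.17 in pairs 1 to 3 and at -0.27 and -0.44 in pair 4, where none of these genes was higher.

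The larger differences were between replicate numbers. With an F test of limma over the numbers, 30 of the 50 genes were called at an adjusted p below 0.1, where 9.14% of all probes were. They included 7 of 12 S phase genes (58.3%), 21 of 31 G2/M genes (67.7%) and 2 of 7 G1 and other genes, Cdc6 and Tyms. The median gap between the highest and the lowest mean of a number was 1.34 log2 units over the 50 genes, 1.08 for S phase and 1.41 for G2/M genes, against 0.56 over all probes. In the median gene 91.7% of the sum of squares lay between replicate numbers and 0.61% between irradiated and non-irradiated arrays, against 66.6% and 2.21% in the median probe. The numbers have more degrees of freedom than irradiation, so both shares are to be read against those of all probes and not against each other.

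Replicate 4 was the high one. Its mean was the highest of the 4 numbers in 49 of the 50 genes, where it was in 28.7% of all probes. The exception was Cenpa, the histone variant of the centromere, on the probe that stood for it. On the other Cenpa probe, replicate 4 measured 6.69 and 6.39, against 4.88 to 5.08 on the other arrays. Both arrays of replicate 4 lay above the other 6 arrays in 45 genes (90%), against 14.1% of all probes. The 5 genes in which they did not were Ccnd3, Cdk2, Cdca8, Kif11 and, on the probe that stood for it, Cenpa. The mean of replicate 4 exceeded the mean of the other numbers by a median of 0.91 log2 units in S phase genes and of 1.27 in G2/M genes, with -0.02 over all probes, and the difference was largest in Top2a at 2.19. Replicate 1 had the lowest mean in 38 of the 50 genes, where it had in 30.7% of all probes.

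Among the called genes, Nusap1 ranged from a mean of 10.75 in replicate 1 to 12.16 in replicate 4 (F test, adjusted limma p of 0.0288). Ube2c spanned 1.61 log2 units between numbers (adjusted limma p of 0.0335) and Ttk 1.73 (0.0336). Nuf2 spanned 2.03 (0.0352) and Bub1b 1.99 (0.0374). Among S phase genes, E2f1 spanned 1.75 log2 units (adjusted limma p of 0.0422), Mcm5 1.40 (0.0608) and Mcm7 1.24 (0.0688). In each of these 8 genes both arrays of replicate 4 were above the other 6.

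**Figure D5:**
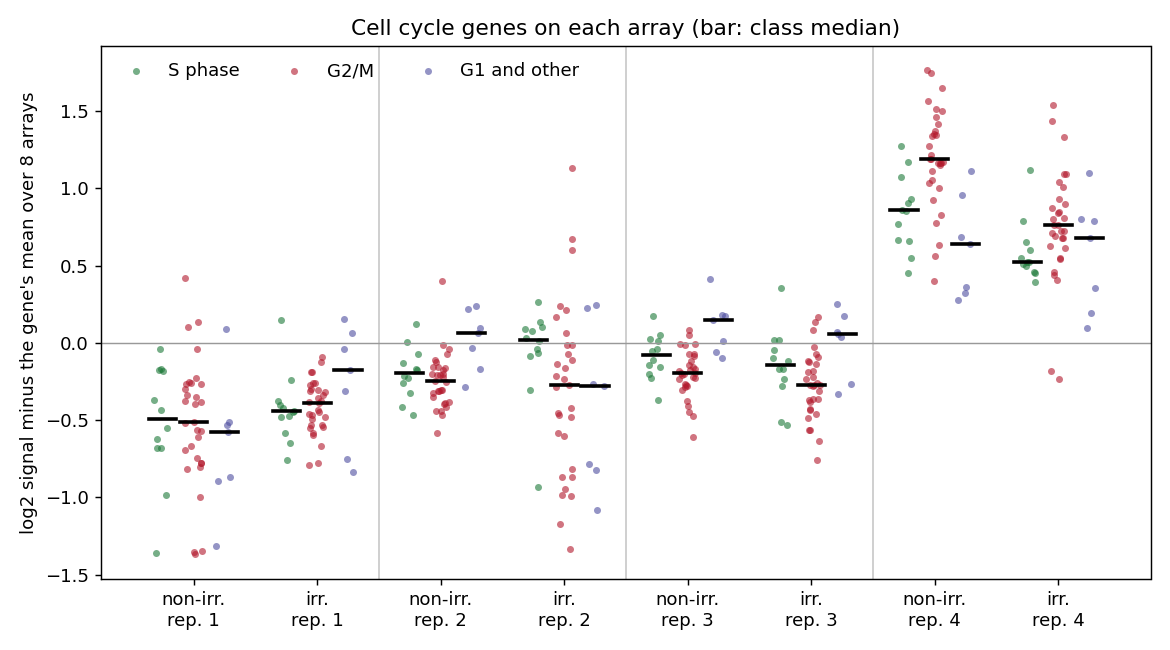
Log2 signal of each of the 50 genes on each array minus the mean of that gene over the 8 arrays (y axis), by array (x axis), with S phase genes in green, G2/M genes in red, G1 and other genes in blue and the class median as a black bar. Replicate 4 had medians of 0.86 and 1.19 on its non-irradiated array and of 0.53 and 0.76 on its irradiated array for S phase and G2/M genes.

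The count called between numbers by limma moved with each replicate left out. It was 0 of the 50 genes without replicate 4 (1.26% of all probes), 4 without replicate 1 (0.561%), 7 without replicate 3 (1.79%) and 46 without replicate 2 (36.5%). With no filter on dim probes 1 of the 50 was called (1.36%).

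Markers of bone cells moved with replicate 4 as well. In 5 of the 9 osteoblast markers both of its arrays were below the other 6, where 14.1% of all probes were, and these were Runx2, Alpl, Bglap, Ibsp and Dmp1. Alpl, the alkaline phosphatase of mineralizing cells, measured 8.39 and 8.63 in replicate 4 and from 10.11 to 10.90 on the other arrays. Bglap, which encodes osteocalcin, measured 7.05 and 6.65 against 7.89 to 8.81, and Cdkn1c, a CDK inhibitor, 11.92 and 11.68 against 13.55 to 14.42. Other CDK inhibitors went the other way, as given further on. Alpl, Bglap, Ibsp and Dmp1 were among the probes called between numbers. Col1a2 was above the other 6 arrays, and Col1a1, Spp1 and Sp7 overlapped with them.

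The signal summed over the 9 osteoblast markers, which collagen dominates, was 19.00 to 19.08 in replicate 4 and 18.73 to 19.01 on the other arrays (log2 of the sum). The sums of the other lists were 15.15 to 15.18 against 11.39 to 15.96 for cartilage (3 markers), 8.67 to 8.77 against 8.92 to 10.39 for endothelium (4 markers), 10.27 to 10.43 against 9.68 to 10.27 for macrophages (5 markers, of which 2 passed the background filter), and 7.55 to 7.64 against 7.84 to 11.29 for skeletal muscle (4 markers, of which 3 passed). Both arrays of replicate 4 were below the other 6 in the endothelial markers Cdh5 and Kdr and in the embryonic myosin Myh3. In replicate 1 the cartilage collagen Col2a1 was at 9.84 and 10.23, against 14.68 to 15.88 on the other arrays. By limma, 0 of the 25 markers had an unadjusted p below 0.05 for irradiation. The part of these markers in the differences between numbers was not tested.

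Further genes of the cycle were taken from 4 lists with 90 genes, of which 89 were on the array and 87 were tested, and by limma 0 were called between irradiated and non-irradiated cells and 0 had an unadjusted p below 0.05. Of the 7 CDK inhibitors 2 had positive log2 fold changes, of the 17 pocket proteins and other E2F factors 8, of the 27 other replication genes 10, and of the 36 other mitotic genes 3. The medians were -0.06, -0.0011, -0.05 and -0.09.

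Cdkn1a, the p21 inhibitor induced by p53, measured 14.74, 14.75, 14.68 and 15.14 in non-irradiated and 14.94, 14.43, 14.71 and 15.25 in irradiated cells. Both groups overlapped, and the log2 fold change was 0.0065 ± 0.13 (SE, n = 4 pairs), with a sign that turned under several settings. Cdkn2a, the locus of p16 and ARF, was higher in the irradiated array in 4 of 4 pairs, with 9.62, 9.14, 8.97 and 9.17 in non-irradiated and 9.67, 9.50, 9.06 and 9.27 in irradiated cells. The difference was 0.15 ± 0.12 on the log2 scale with an unadjusted limma p of 0.246, and that of Cdkn2d, the p19 inhibitor of cyclin D kinases, was -0.28 ± 0.20. Cdkn2b, which encodes p15, was lower in 4 of 4 pairs, with a log2 fold change of -0.12 ± 0.11. Of all probes, 3.57% were higher and 4% lower in all 4 pairs.

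E2f3, another activating E2F factor, was lower in the irradiated array in 4 of 4 pairs, with 6.01, 6.22, 5.72 and 6.04 in non-irradiated and 5.99, 5.98, 5.60 and 5.74 in irradiated cells, a log2 fold change of -0.17 ± 0.11 (SE, n = 4 pairs). Rbl1, which encodes p107, was at 0.33 ± 0.25, but at 0.04 both with normexp and in the deposited log2 values. Rbl1 was well above background on 3 of 4 non-irradiated and 4 of 4 irradiated arrays. Only the irradiated group, in which its mean was higher, met the filter. Of the replication genes, Pole, the catalytic subunit of DNA polymerase epsilon, was at 0.37 ± 0.19 with an unadjusted limma p of 0.0985, the smallest in these lists. It was at 0.19 with normexp and at 0.0032 in the deposited log2 values. Orc6 of the origin recognition complex was at -0.19 ± 0.15. The mitotic kinesins Kif4a and Kif18a were at -0.23 ± 0.15 and -0.18 ± 0.12, and with normexp E2f3 and Kif4a were both at -0.09.

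Between replicate numbers, the F test of limma called 2 of 7 CDK inhibitors, 2 of 17 pocket proteins and E2F factors (E2f7 and Mybl2), 11 of 27 other replication genes and 15 of 36 other mitotic genes, or 28.6%, 11.8%, 40.7% and 41.7%, where 9.14% of all probes were called. The medians of the last list on the arrays were 1.05 and 0.57 in non-irradiated and irradiated replicate 4 relative to the mean of each gene, and between -0.35 and -0.10 on the other 6 arrays. The CDK inhibitors called were Cdkn1c, lower in replicate 4 as given above, and Cdkn2b, which measured 8.89 and 8.89 in replicate 4 and from 9.03 to 9.78 on the other arrays. In Cdkn1a, Cdkn2c and Cdkn2d, which were not called, both arrays of replicate 4 were above all other arrays. Cdkn2c measured 7.98 and 7.59 in replicate 4 and from 5.27 to 7.01 on the others. Cdkn1b and Cdkn2a overlapped with them.

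Probes of the same gene differed in some genes. In 17 genes more than 1 probe was tested, and the signs of the log2 fold change differed between probes in 5 of them, Cdc25c, Cenpa, Mcm2, Mcm3 and Mcm4. The 4 probes of Ndc80 ran from -0.37 to -0.09, those of Mcm4 from -0.20 to 0.05, and both probes of Ccnb2 were at -0.32 and -0.11. The 4 probes of Mki67 ran from -0.18 to -0.09, and both probes of Foxm1 were at -0.15. For Cenpa the probes were at -0.12 and 0.21, so that its place as the highest of the 50 genes rested on 1 of 2 probes. Of the 73 probes 72 were tested, 60 of these had a negative log2 fold change, 0 had an unadjusted limma p below 0.05 for irradiation, and 45 were called between replicate numbers, where 9.14% of all probes were.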

How the data were processed

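The authors deposited, for each of 8 arrays, the spot intensity from Agilent Feature Extraction 11.0.1.1, already corrected for background and not normalized between arrays. A table of quantile normalized log2 values (24029 rows), also deposited, served as an alternative. Columns of comparisons were not used.

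Processed signals were log2-transformed and quantile normalized over 58717 rat spots, spots marked as outlying were left out, and spots of a probe were averaged. A probe was tested when over 50% of its spots were well above background on all 4 arrays of a group (26404 probes, 26391 fitted). The fit used limma 3.58.1 in R 4.3.3 with irradiation and the replicate number as a block, and two-sided p-values were adjusted by Benjamini-Hochberg. A call is an adjusted p below 0.1. The numbers pair the arrays because both carry the same animal number in the scanner file names. For numbers 1 to 4 the deviations of paired arrays correlated at 0.61, 0.05, 0.57 and 0.75 over all probes. Over the 50 genes they correlated at 0.37, -0.17, 0.59 and 0.87. The F test over the numbers was fitted on 26371 probes. The fit was tested on simulated data, with noise drawn independently for each probe and array. These arrays share differences across probes, so the simulation does not check their p-values. The tested probe with the highest mean stood for a gene. Nothing states that numbers stand for separate cultures beyond that animal number, so p-values measure the spread between these arrays.

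The genes, classes and lists were chosen with earlier results of these data known. Genes named with values were Mki67, Pcna, Top2a, Ccnd1, Cdk1 and Cdkn1a, the 3 S phase, 6 G2/M and 2 other genes with the smallest p for irradiation, the 3 S phase and 5 G2/M genes with the smallest p between numbers, genes with an outlying array, and up to 2 genes of each list with the smallest p. Others were named after their values were seen. The number of arrays limits the precision. Probe positions on the array are those of another genome build than the promoter table, and none were used. Alternative settings were the 75th percentile as scaling, normexp (offset 50), other filters on dim probes, the deposited log2 values, outlying spots kept, no block or a random block, each replicate left out, probes of a gene averaged, a trend and robust prior, the methods' t-test, and Cdc6 and Tyms as S phase genes. A comparison of 6 arrays was chosen after seeing the data.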

Additional observations from a re-analysis of the deposited data

Results flagged for a closer look

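In a group of 4 arrays, an array was marked when its gap to the nearest of the others, divided by the range of the group, exceeded Dixon's 95% critical value for 4 values. This was so in 20 of 132 groups examined (15.2%), where chance gives about 5%, and in 16 of the 20 the array was non-irradiated replicate 4, on the high side. The groups share arrays and are not independent. The rule was not applied to all probes, so whether this share is particular to these genes was not tested.

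In the non-irradiated group, with replicate 4 high, the ratio was 0.924 for Mki67, 0.983 for Cdca3, which takes part in the destruction of mitotic inhibitors, and 0.919 for Plk1. It was 0.905 for Aurka, 0.85 for Ccna2 and 0.864 for Ccnb1, a kinase and cyclins of mitosis. The spindle genes Tpx2, Nusap1 and Kif20a were at 0.876, 0.873 and 0.82903, and the kinetochore gene Ndc80 and the factor Foxm1 at 0.892 and 0.867. Among genes of DNA synthesis the ratio was 0.866 for Mcm3 and 0.882 for Rrm1. Outside the 50 genes it was 0.839 for Cdkn1a and 0.913 for Kif18a, and the median level of the other mitotic genes was at 0.926.

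In the irradiated group replicate 4 was the high array in Cdk1 (0.83), Kif4a (0.982) and the median level of the G2/M genes (0.896). Cenpa was marked for irradiated replicate 2 (0.862), which measured 9.75 where the other irradiated arrays lay between 8.28 and 8.48.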

How the results depend on the processing

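Under all alternatives run, 0 of the 50 genes were called for irradiation. Without the replicate block the count at an unadjusted p below 0.05 was 0 of the 50 genes and 246 of all probes, and with a random replicate block 0 and 694, so that the block changed no call. Among all probes that count ran from 246 without the block to 1658 with no filter, against 670, and was 250 with normexp, 292 with the deposited log2 values, 383 with the trend and robust prior, 389 and 396 without replicates 3 and 4, 1076 without replicate 1 and 1407 without replicate 2. Leaving out 1 replicate number moved the count of the 50 genes at an unadjusted p below 0.05 from 0 to between 0 and 3, and the count called between replicate numbers from 30 to between 0 and 46. With no filter on dim probes, 1 gene was called between numbers, and 618 of all probes instead of 2411. Other settings called 29 to 41 of the 50 genes and up to 3675 probes. The S phase median ran from -0.09 to 0.06 and the G2/M median from -0.19 to -0.0038 with a replicate left out. Several log2 fold changes close to 0 turned sign. Cdkn1a was at -0.0033 when scaled to the 75th percentile, -0.0069 with normexp and -0.017 with its probes averaged. With a replicate left out, Mki67 ran from -0.23 (without 2) to 0.0083 (without 4), Cdk1 from -0.19 (without 1) to 0.0064 (without 4), Pcna from -0.082 (without 2) to 0.049 (without 4), Mcm7 from -0.15 (without 1) to 0.044 (without 4), Mcm5 from -0.092 (without 2) to 0.12 (without 4) with -0.021 without 1, Ccne2 from -0.015 (without 1) to 0.18 (without 3), and Cdkn1a from -0.061 (without 1) to 0.12 (without 2) with -0.028 without 4. Top2a, Ccnd1, E2f1 and Ccnd3 ran from -0.47, -0.41, -0.21 and -0.40 without replicate 1 to 0.18, 0.35, 0.0083 and 0.12 without replicate 2. The cause of these changes was not tested. The 50 genes were well above background on all 8 arrays, and Tpx2, Aurkb, Pole, Rbl1, E2f3 and Kif4a moved by over 1.5 times with normexp.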

Other observations

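Leaving out replicates brought other genes than those with the smallest p to the front. Without replicate 2, the chromosomal passenger gene Cdca8 had a log2 fold change of -0.67 ± 0.15 (SE, unadjusted limma p of 0.00508) and Cdca3 of -0.37 ± 0.12 (unadjusted limma p of 0.0292), both with an adjusted p of 0.868. Without replicate 4, the probe that stood for Cenpa had a log2 fold change of 0.50 ± 0.17 (unadjusted limma p of 0.0337, adjusted p of 1.00). The other Cenpa probe measured 4.98, 5.08 and 4.98 on non-irradiated and 5.05, 4.88 and 4.95 on irradiated arrays 1 to 3. With 3 pairs left these values rest on few arrays, and the genes were named after their values were seen.

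Among the other mitotic genes, the kinase gene Pbk had the lowest log2 fold change, -0.70 ± 0.52 (SE, n = 4 pairs, unadjusted limma p of 0.225). It measured 4.43, 6.31, 6.30 and 8.03 in non-irradiated and 5.11, 3.61, 6.12 and 7.43 in irradiated cells, and the low arrays were non-irradiated replicate 1 and irradiated replicate 2. Pbk was also named after its values were seen.

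The GC content of the probes moved with the differences of pairs 1 and 2 in opposite directions. Across the 50 genes, which share these arrays, the GC content of a probe and the log2 difference had a Pearson's r of 0.45 and -0.41 in pairs 1 and 2 and of 0.17 and 0.03 in pairs 3 and 4. Across all 26250 probes the values were 0.10 and -0.12, then 0.19 and 0.03.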
